A study of Mus musculus with 6 samples.

Results

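The interleukin 12 family is described here through 7 genes, the cytokine subunit genes Il12a, Il12b, Il23a, Il27 and Ebi3 and the receptor genes Il12rb1 and Il12rb2, which were picked by symbol from a table of 15487 genes. All 7 were found. Flow cytometry was used to isolate tumour-associated macrophages on day 15 from tumours of CT26, a mouse colon carcinoma line, in BALB/C hosts, and their RNA was sequenced. The control group, Sg-Con, holds 3 libraries from tumours of CT26 cells labelled Sg-Con, and the Sg-C3 group holds 3 libraries from tumours of CT26 cells labelled Sg-C3. These labels are read here as a control guide RNA and a guide RNA against complement C3. The macrophages themselves are labelled wild type in both groups, so C3 RNA in them does not check the guide. The sources used here do not give the site of implantation, whether the edited line was 1 clone, or whether each library came from its own animal. The p-values below therefore rest on differences among the 6 libraries alone, and these may be technical. Replicate numbers follow accession order and pair no library with another. Sample titles begin with TAM in Sg-Con and with C3KO in Sg-C3, apart from replicate 3 of each group. There they begin with CON and SGC3. This title style is used below as a covariate, and the sources do not say whether it marks a batch.

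Cytokines of this family are dimers of a helical subunit and a partner that resembles a soluble receptor. Il12b encodes p40, which joins p35 (Il12a) to form IL-12 and p19 (Il23a) to form IL-23. Ebi3 joins p28 (Il27) to form IL-27 and p35 to form IL-35. The proteins work as pairs, and a subunit's RNA alone does not show how much dimer is made. Dendritic cells and macrophages are the usual sources of IL-12, IL-23 and IL-27 after contact with microbes or interferon gamma. IL-12 acts on T cells and NK cells through Il12rb1 and Il12rb2 and drives interferon gamma production, IL-23 supports type 17 responses through Il12rb1 and Il23r, and IL-27 has both activating and restraining effects on T cells.

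Every member was higher in Sg-C3, and for each of them the lowest Sg-C3 library lay above the highest Sg-Con library. The ratio of mean FPKM was largest for Il12a, Il12b and Il27, at 12-fold, 11.8-fold and 10.3-fold, and smallest for Il12rb1, at 2.78-fold. With limma on log2(FPKM + 1), 7 of 7 members were called higher and 0 lower (Benjamini-Hochberg adjusted p below 0.05), beside 12.7% of all tested genes called higher and 31.7% called lower. That background moved with the scaling: 1418 genes were called higher and 3554 lower on the deposited scale, 1845 and 2459 with quantile normalization, and 2088 and 2134 with median-ratio scaling. All 7 members were called higher under each of these scalings. Groups without overlap and with Sg-C3 higher were found for 16.2% of tested genes, and with Sg-C3 lower for 41.4%. The median log2 fold change of the members was 1.51, and that of all 11198 tested genes was -0.16 (-0.02 with median-ratio scaling). Il12a and Il12rb2 reached the filter of 1 FPKM in 3 libraries through the Sg-C3 libraries alone, and 89.7% of the 117 tested genes below 1 FPKM in every Sg-Con library were called higher. Fitted without a filter, 7 of 7 members were again called higher, beside 10.0% of the 15487 genes called higher and 22.1% called lower.

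**Figure D1:**
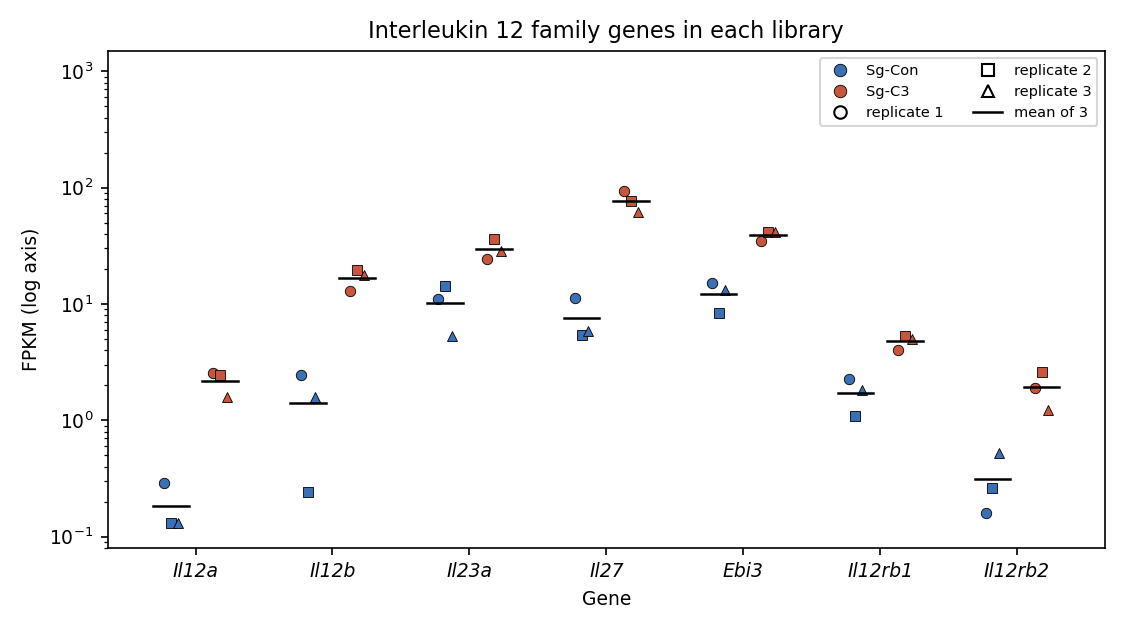
FPKM of the 7 genes (log axis) in each of 3 Sg-Con (blue) and 3 Sg-C3 (red) libraries, with symbols for the replicate and a bar for the mean of 3. For every gene the red points lie above all blue points, and the 2 genes with all Sg-Con values below 1 FPKM are Il12a and Il12rb2.

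The sequence before the start site is shown for the subunit genes that have a RefSeq promoter entry. Whether these promoters had a part in the higher levels was not tested. RefSeq entries (GRCm38.p6) were found for 4 of the 7 members, Il12a with 2 start sites, and Il12b, Ebi3 and Il12rb2 with 1 each. The 250 bases before a start are printed 5′ to 3′ on the gene's strand. Capitals mark matches on either strand to a motif of factors known to act on cytokine genes: Ets (GAGGAA, the family of PU.1), NF-kB (GGGA and CC with 4 bases of any kind between them), GAS (TTCNNNGAA, bound by STAT dimers), ISRE (a pair of GAAA with 2 bases of any kind between them, bound by interferon regulatory factors), AP-1 (TGANTCA) and a TATA box (TATAAA).
Il12b, chr11:44399813-44400062, + strand: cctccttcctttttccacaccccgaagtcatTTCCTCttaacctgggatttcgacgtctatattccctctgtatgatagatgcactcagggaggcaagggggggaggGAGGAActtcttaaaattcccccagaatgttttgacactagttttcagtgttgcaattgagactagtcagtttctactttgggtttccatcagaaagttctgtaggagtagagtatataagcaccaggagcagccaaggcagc
Ebi3, chr17:55952373-55952622, + strand: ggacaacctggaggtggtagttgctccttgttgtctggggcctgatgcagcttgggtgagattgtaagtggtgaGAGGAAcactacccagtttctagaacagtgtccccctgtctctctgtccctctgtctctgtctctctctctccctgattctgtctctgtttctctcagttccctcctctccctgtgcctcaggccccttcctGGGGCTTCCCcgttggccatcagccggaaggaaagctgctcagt
Il12a, the downstream start site, chr3:68691174-68691423, + strand: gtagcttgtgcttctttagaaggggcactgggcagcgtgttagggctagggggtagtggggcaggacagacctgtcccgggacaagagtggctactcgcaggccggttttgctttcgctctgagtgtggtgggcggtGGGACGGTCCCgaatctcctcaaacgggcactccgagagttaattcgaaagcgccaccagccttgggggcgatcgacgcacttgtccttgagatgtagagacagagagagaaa
The Il12b window held 2 Ets matches, and the Ebi3 window held 1 Ets match and, 44 to 35 bases before the start, 1 NF-kB match. The Il12a window held 2 NF-kB matches that overlap, 1 on each strand, and the window before its other start held none of the 6 motifs. The Il12rb2 window, not printed, held 1 GAS match, TTCTCAGAA. Of 32851 promoter windows of this length, 23.3% held the Ets motif, 17.6% the NF-kB motif, 7.02% the GAS motif, 2.98% the ISRE, 6.75% the AP-1 motif and 12.4% the TATA box. The last 3 had no match to these exact letters in these 5 windows. Near forms were not searched, such as the tatataag close to the start in the Il12b window. A window without a match is therefore not shown to lack a site for that factor. A match here is a match of letters, and nothing was measured at these sites.

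Il12b, the shared p40 chain, stood at 2.43, 0.24 and 1.59 FPKM in Sg-Con replicates 1, 2 and 3 and at 12.99, 19.66 and 17.66 FPKM in Sg-C3 replicates 1, 2 and 3. The Sg-Con libraries were uneven, with replicate 2 far below the other 2, while the Sg-C3 libraries lay close together. The means were 1.42 ± 1.10 and 16.8 ± 3.42 FPKM (SD, n = 3 per group), with a log2 fold change of 2.98 (SE 0.36, limma adjusted p = 0.00211). It ranked 24 among the tested genes by log2 fold change. The Sg-Con values correspond to an estimated 8 to 89 reads and the Sg-C3 values to 416 to 709.

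Il12a, the p35 chain of IL-12, had the lowest Sg-Con mean of the members, although Il12rb2 lay below it in Sg-Con replicate 1. It stood at 0.29, 0.13 and 0.13 FPKM in the Sg-Con libraries and at 2.54, 2.47 and 1.57 FPKM in the Sg-C3 libraries. The Sg-Con values correspond to an estimated 3 to 7 reads per library and the Sg-C3 values to 36 to 59. The log2 fold change was 1.42 (SE 0.16, limma adjusted p = 0.00189, and 0.00240 without a filter). The added 1 FPKM sets the size of this value, which was 3.03 with a pseudocount of 0.1.

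Il23a, the p19 chain of IL-23, was already among the more abundant members in Sg-Con, at 11.08, 14.39 and 5.33 FPKM. The Sg-C3 libraries stood at 24.25, 35.91 and 28.46 FPKM. Its mean rose from 10.3 ± 4.58 to 29.5 ± 5.90 FPKM, 2.88-fold, with a log2 fold change of 1.51 (SE 0.32, limma adjusted p = 0.00963). Without a filter and without Sg-C3 replicate 2 it was not called, at an adjusted p of 0.0707.

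Il27, the p28 chain, had the largest log2 fold change of the members with all libraries and a pseudocount of 1, and ranked 13 of all tested genes. Il12b had the larger value with a pseudocount of 0.1, at 3.88 against 3.41, and without Sg-C3 replicate 1, at 3.14 against 3.11. Sg-Con libraries stood at 11.19, 5.42 and 5.89 FPKM and Sg-C3 libraries at 92.86, 77.17 and 61.97 FPKM. The lowest Sg-C3 value was thus several times the highest Sg-Con value. The means were 7.5 ± 3.20 and 77.3 ± 15.4 FPKM (a log2 fold change 3.25, SE 0.26, limma adjusted p = 8.88e-04). In Sg-Con its mean exceeded that of 57.6% of the genes in the table, and in Sg-C3 that of 93.7%.

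Ebi3, the partner of p28, had a smaller log2 fold change, and the difference between them was given no test. It stood at 15.2, 8.36 and 13.25 FPKM in Sg-Con and at 34.67, 41.62 and 41.34 FPKM in Sg-C3, where the 3 libraries were close. The means were 12.3 ± 3.52 and 39.2 ± 3.93 FPKM, 3.20-fold apart, with a log2 fold change of 1.63 (SE 0.20, limma adjusted p = 0.00224).

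The receptor genes were low in both groups. Il12rb1, the chain that the IL-12 and IL-23 receptors share, stood at 2.24, 1.09 and 1.81 FPKM in Sg-Con and at 3.99, 5.27 and 5.02 FPKM in Sg-C3 (log2 fold change 1.10, SE 0.18, limma adjusted p = 0.00494). Il12rb2, the signalling chain found in the IL-12 receptor, stood at 0.16, 0.26 and 0.52 FPKM in Sg-Con and at 1.9, 2.62 and 1.22 FPKM in Sg-C3. Its Sg-C3 mean was 6.11-fold the Sg-Con mean (log2 fold change 1.13, SE 0.20, limma adjusted p = 0.00593, and 0.00763 without a filter). Its log2 fold change was 2.32 with a pseudocount of 0.1. The Sg-Con values correspond to an estimated 8 to 29 reads.

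Markers of the lymphocytes that carry these receptors moved with the groups. Of 8 NK cell markers 6 were called higher without a filter and none lower, beside 10.0% higher and 22.1% lower over all genes. Their summed level was 0.75 to 1.78 FPKM in Sg-Con libraries and 17.2 to 27.6 in Sg-C3 libraries. The defining marker Ncr1 stood at 0.04, 0 and 0.07 FPKM in Sg-Con replicates 1, 2 and 3. In Sg-C3 it stood at 0.08 to 0.29 FPKM, and it did not pass without a filter (limma adjusted p = 0.200). Prf1, Nkg7 and Klre1 were listed at 0 in at least 1 Sg-Con library. Of 8 T cell markers 5 were called higher and none lower, with summed levels of 2.38 to 5.99 and 15.9 to 22.7 FPKM, most of the latter from Cd4. Cd3e, a chain of the T cell receptor complex, overlapped between the groups, at 0.52 to 2.2 FPKM in Sg-Con and 0.78 to 1.58 in Sg-C3, and Cd3g was listed at 0 in Sg-Con replicate 2. The part of these cells in the receptor values was not tested. In sorted bulk samples, a change in the number of cells of a type and a change in RNA per cell cannot be told apart.

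In Sg-C3 the order of levels, in FPKM and so per length, was Il27, Ebi3, Il23a, Il12b, Il12rb1 and then Il12a and Il12rb2. There the ranges of Ebi3 and Il23a overlapped, as did those of Il12a and Il12rb2, and all other neighbours were separate. In Sg-Con the mean levels ran from Ebi3 through Il23a, Il27, Il12rb1, Il12b and Il12rb2 to Il12a. There the ranges of Ebi3, Il23a and Il27 overlapped, as did those of Il12rb1 and Il12b, and those of Il12rb2 and Il12a. The wide range of Il12b also overlapped those of Il12rb2 and Il12a, and Il12rb2 lay above Il12b in Sg-Con replicate 2. The top gene in every Sg-C3 library was Il27, and in the Sg-Con libraries it was Ebi3, apart from Sg-Con replicate 2, where it was Il23a. That library held the lowest Sg-Con value for 5 of the 7 members, tied for Il12a, and the highest for Il23a.

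The balance of subunit RNA differed between the dimers. These ratios are descriptions and were given no p. The transcript lengths behind the FPKM are not given, so the absolute level of a ratio is less certain than its shift between the groups. For IL-27, Ebi3 to Il27 was 1.36, 1.54 and 2.25 in the Sg-Con libraries and 0.373, 0.539 and 0.667 in the Sg-C3 libraries. In FPKM, Ebi3 thus exceeded Il27 in every Sg-Con library and Il27 exceeded Ebi3 in every Sg-C3 library. The mean ratios were 1.72 ± 0.470 and 0.527 ± 0.147 (SD, n = 3). For IL-23, Il12b to Il23a was 0.219, 0.0167 and 0.298 in Sg-Con and 0.536, 0.547 and 0.621 in Sg-C3. Il23a exceeded Il12b in all 6 libraries, and the groups did not overlap.

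For IL-12, Il12b to Il12a was 8.38, 1.85 and 12.2 in Sg-Con and 5.11, 7.96 and 11.2 in Sg-C3. Il12b had the higher FPKM in all 6 libraries, and the groups overlapped, with mean ratios of 7.49 ± 5.25 and 8.11 ± 3.07. The lowest ratio, in Sg-Con replicate 2, rests on the few reads behind its values of 0.24 and 0.13 FPKM. For IL-35, Ebi3 to Il12a was 52.4, 64.3 and 102 in Sg-Con and 13.6, 16.9 and 26.3 in Sg-C3. Ebi3 exceeded Il12a everywhere, and the groups did not overlap. The Sg-Con mean of this ratio, 72.9, became 44.7 when 0.1 FPKM was added to each value. Among the partners of p40, Il12a made up 0.895% to 2.55% of the summed Il12a and Il23a FPKM in Sg-Con and 5.23% to 9.48% in Sg-C3.

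**Figure D2:**
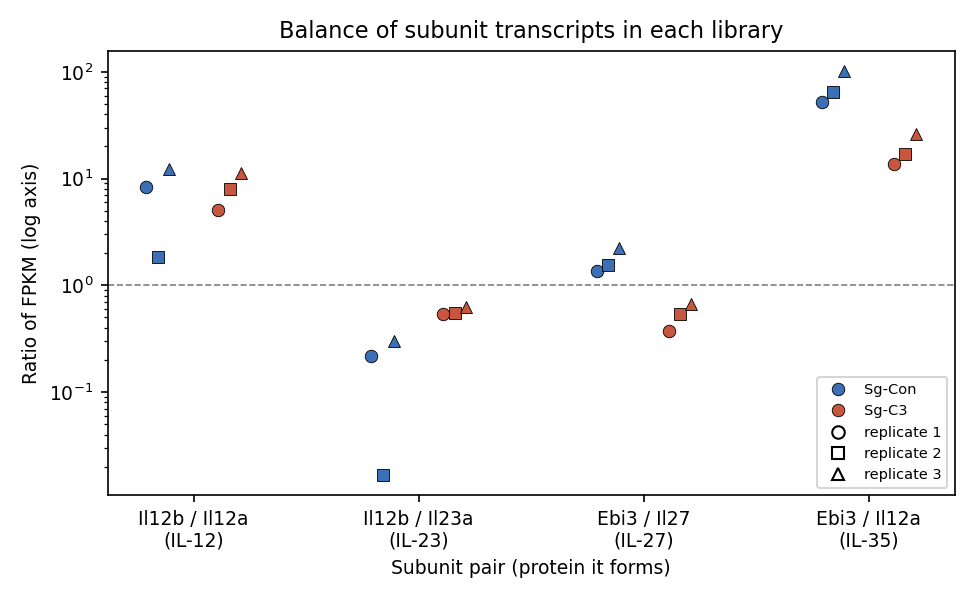
Ratio of FPKM between the subunit genes of each dimer (log axis) in each library, with a dashed line at equal FPKM. Ebi3 to Il27 crosses from above 1 in all Sg-Con libraries to below 1 in all Sg-C3 libraries, Il12b to Il23a stays below 1, and only Il12b to Il12a overlaps between the groups.

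The genes that carry the family's signal were measured beside it. Of 13 listed receptor and signalling genes 11 were tested, with a median log2 fold change of 0.75. Of these 7 were called higher, 0 lower and 4 did not pass, beside 12.7% higher and 31.7% lower among all tested genes. Jak2, the kinase that docks to Il12rb2, rose from 29.8 ± 5.34 to 107 ± 16.6 FPKM (log2 fold change 1.81, limma adjusted p = 0.00107). Stat4, the factor that IL-12 activates, stood at 0.7, 1.32 and 1.83 FPKM in Sg-Con and at 6.19, 11.15 and 8.94 FPKM in Sg-C3 (log2 fold change 2.09, adjusted p = 0.00202), beside the NK and T cell markers above. Stat3, which acts downstream of IL-23 and IL-27, and Socs3, an inhibitor of such signals, had log2 fold changes of 0.75 and 0.57.

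Neither receptor chain gene for IL-27 was called. Il6st, which encodes gp130, stood at 11.2 ± 1.83 and 11 ± 1.10 FPKM (a log2 fold change -0.02, SE 0.14, limma adjusted p = 0.907), and Il27ra at 0.81 ± 0.178 and 0.72 ± 0.200 FPKM, under the filter. Tyk2, the kinase that docks to Il12rb1, stood at 14.4 ± 1.73 and 10.3 ± 2.67 FPKM (log2 fold change -0.47, adjusted p = 0.0627), and it was called lower with array weights and without Sg-C3 replicate 3. These 3 were named after their values were seen. Il23r was not analysed here.

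Of 17 listed transcription factors 7 were called higher, 2 lower and 8 did not pass. The list was chosen with earlier results of these data known, and action of each factor on these promoters was not tested. The median log2 fold change of the 17 was 0.34, and among all tested genes 12.7% were called higher and 31.7% lower. Irf1, which acts at Il12a, Il27 and other interferon gamma targets, rose from 81.8 ± 3.60 to 153 ± 5.98 FPKM (log2 fold change 0.90, limma adjusted p = 0.00115). Nfkb1 and Rel, NF-kB subunit genes, rose as well (log2 fold changes 1.17 and 0.67). Maf, which restrains Il12 gene expression in macrophages, fell from 52.4 ± 13 to 16.2 ± 5.33 FPKM (log2 fold change -1.65, adjusted p = 0.00394). The lower count was 1 after median-ratio scaling, with the title style as a covariate and when replicate 1 or replicate 2 of either group was left out, and 4 with array weights. Maf was called lower in each of these settings.

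Receptors and adaptors that lead to induction of the family went both ways, with 3 of 13 higher, 5 lower and 5 that did not pass, and a median log2 fold change of -0.25. Beside the 12.7% higher and 31.7% lower among all tested genes, these counts do not set the list apart. Cd40, the receptor through which T cells license myeloid cells, rose from 16.2 ± 5.68 to 121 ± 32.5 FPKM (log2 fold change 2.86, limma adjusted p = 0.00153), and the adaptor gene Myd88 had a log2 fold change of 0.61. The interferon gamma receptor gene Ifngr1 fell from 60.3 ± 10.9 to 34.9 ± 6.0 FPKM and the RNA sensor gene Tlr7 from 46.0 ± 5.2 to 29.3 ± 3.19 FPKM (log2 fold changes -0.77 and -0.63). The lower count was 3 without a filter or with quantile normalization, and 2 after median-ratio scaling, with the title style as a covariate and when replicate 1 or replicate 2 of either group was left out. Ifngr1 and Tlr7 were lower in all of these.

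Of 11 genes that restrain p40 or the signals inducing it, 4 were higher, 1 lower and 6 did not pass. Among all tested genes 12.7% were higher and 31.7% lower. The higher count was 3 without a filter, with the robust prior and with the title style as a covariate. It was also 3 when any library other than Sg-Con replicate 1 was left out. Il10 rose from 370 ± 81.0 to 803 ± 132 FPKM (log2 fold change 1.13, limma adjusted p = 0.00467). Tnfaip3 and Bcl3, brakes on NF-kB, had log2 fold changes of 0.59 and 0.60, and the prostaglandin receptor gene Ptger4 one of 0.93 (adjusted p = 0.0439, and 0.0568 without a filter). Il10rb, a chain of the IL-10 receptor, was the lower member (log2 fold change -0.37) and was not called after median-ratio scaling.

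On the response side, Ifng, the main product of IL-12 action, was listed at 0 in all 3 Sg-Con libraries and stood at 1.62, 1.15 and 0.85 FPKM in Sg-C3, an estimated 19 to 33 reads. It was under the filter and is named after its values were seen. Of 13 listed type 1 response genes 8 were tested, and 5 were higher and none lower, beside 12.7% and 31.7% of all tested genes. Il2rb, 1 of the 5, reached the filter through the Sg-C3 libraries alone, as Il12a and Il12rb2 did, and its call follows in part from that. Cxcl9 and Cxcl11, chemokines that interferon gamma induces, rose 7.57-fold and 2.83-fold. Il15 and Il15ra had log2 fold changes of 0.99 and 0.76. Il2rb, a receptor chain of NK and T cells, stood at 0.12 ± 0.0520 and 3.32 ± 1.01 FPKM, beside the rise of the markers of those cells. Leaving out replicate 1 or replicate 2 of Sg-C3 gave 3 higher of 7 tested. Of the type 17 list, Il6 and Il1b rose (log2 fold changes 2.11 and 0.78), Il1r1 did not pass (0.60, limma adjusted p = 0.254), and Il17a, Il17f, Il22 and Ccr6 were not analysed here. The count of 2 higher was 1 with quantile normalization and when replicate 2 or replicate 3 of either group was left out.

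**Figure D3:**
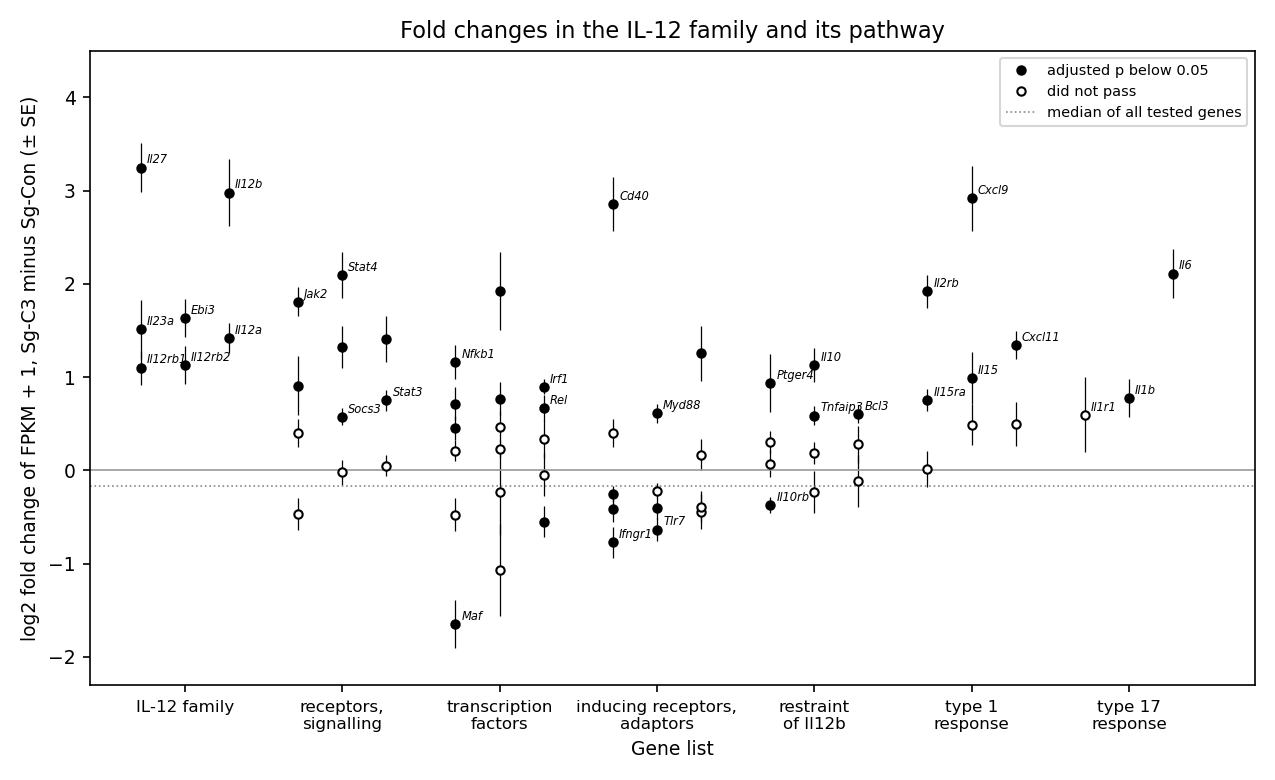
Log2 fold change of FPKM + 1, Sg-C3 minus Sg-Con, with its limma SE, for the tested genes of the family and of 6 pathway lists; filled points passed an adjusted p of 0.05, and the dotted line is the median of all tested genes, -0.16. Il27 and Il12b lie at 3.25 and 2.98, near Cxcl9 at 2.92 and Cd40 at 2.86, while Maf lies at -1.65.

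Genes with the most similar profile over the 6 libraries differed between members. Likeness is the root mean square difference between centred log2(FPKM + 1) values. Nearest to Il12b were Cxcl9 (0.122), Pla2g2d (0.185), Tspan13 (0.195), Spon1 (0.226) and the MHC class II loading gene H2-DMb2 (0.232). Nearest to Il27 were Serpina3g (0.295), the collagenase gene Mmp13 (0.306), the granzyme gene Gzma (0.317), Lag3 (0.325) and Htra4 (0.336). Nearest to Ebi3 were the interferon-inducible GTPase genes Iigp1 (0.0677) and Igtp (0.0866), the peptide transporter gene Tap1 (0.0856), H2-T23 (0.0887) and Batf2 (0.0900). Within the family, Il12b and Il27 differed by 0.435, and Ebi3 lay closer to Il12rb1 (0.272) and Il12a (0.307) than to its partner Il27 (0.865). These distances depend on the size of the fold change, and so on the added 1 FPKM for low genes. With a pseudocount of 0.1, the log2 fold changes of Il12a, Ebi3 and Il27 were 3.03, 1.71 and 3.41. The distances were not computed with that pseudocount.

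Dendritic cells are the other usual source of these cytokines. Of 9 conventional dendritic cell markers 3 were called higher without a filter, Xcr1, Clec9a and Dpp4, and none lower. Over all genes 10.0% were called higher without a filter and 22.1% lower. The list's summed level was 38.4 to 74.7 FPKM in Sg-Con and 66.1 to 94.2 in Sg-C3, so the groups overlapped. Most of that sum was Cadm1 and Wdfy4, each of which overlapped between the groups. Clec9a stood at 0.04 to 0.09 FPKM in Sg-Con and 0.62 to 1.46 in Sg-C3, and Flt3, which did not pass, at 0.14 to 0.21 and 0.23 to 0.33. Of the others that did not pass, Zbtb46 had means of 0.717 and 0.747 FPKM, Wdfy4 of 15.9 and 13.5, and Cd209a of 0.350 and 0.230. Cadm1 had means of 35.1 and 58.7 FPKM and Itgae of 0.140 and 0.283, and the Itgae groups did not overlap. Of 7 mature dendritic cell markers 2 were higher, Ccr7 and Ccl22, with sums of 14.2 to 18.6 and 42.1 to 68.5 FPKM. Ccr7, with means of 2.43 and 32.8 FPKM, made up most of the Sg-C3 sums. Fscn1, Ccl17, Cacnb3, Il4i1 and Nudt17 overlapped between the groups, and Nudt17 had the lower mean in Sg-C3. Batf3, a transcription factor gene of the first of these cell types, stood at 1.67, 0.16 and 2.99 FPKM in Sg-Con and at 7.8, 6.15 and 9.68 FPKM in Sg-C3. The marker genes named beside the lists, and Batf3, were chosen after their values were seen. The part of dendritic cells in the cytokine values was not tested.

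Of 7 macrophage markers none was higher and 2, Cd68 and Mertk, were lower without a filter, beside 10.0% and 22.1% of all genes. The sums were 3791 to 4680 FPKM in Sg-Con and 3036 to 3799 in Sg-C3. Csf1r, the receptor gene for macrophage colony-stimulating factor, stood at 402 ± 43.7 and 324 ± 41.0 FPKM, with no overlap between the groups, and did not pass. Adgre1, the F4/80 gene, overlapped between the groups, at 160 to 181 and 138 to 194 FPKM. All 7 of these markers were detected in all 6 libraries. Of 7 neutrophil markers 4 were higher, with sums of 139 to 220 and 386 to 1318 FPKM, the highest in Sg-C3 replicate 1. Of 6 fibroblast markers 3 were higher and 1 lower, with sums of 58.9 to 79.2 and 139 to 200 FPKM. Of 5 carcinoma markers 2 were lower, with sums of 15.2 to 29.5 and 2.12 to 2.90 FPKM. Of 5 measured plasmacytoid dendritic cell markers 1 was higher and 1 lower, with sums of 17.3 to 20.9 and 12.2 to 14.9 FPKM. Most of that sum was Tcf4, the lower gene, and the other 4 had higher means in Sg-C3. Of 5 B cell markers none passed, with sums of 1.76 to 4.62 and 4.72 to 6.91 FPKM. Without Sg-C3 replicate 1, the log2 fold changes of the 7 members without a filter were called in every case. That fit is no test of neutrophils, whose sums in Sg-C3 replicates 2 and 3, 698 and 386 FPKM, still lay above all Sg-Con sums. The part of any of these cell types in the family's values was not tested.

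**Figure D4:**
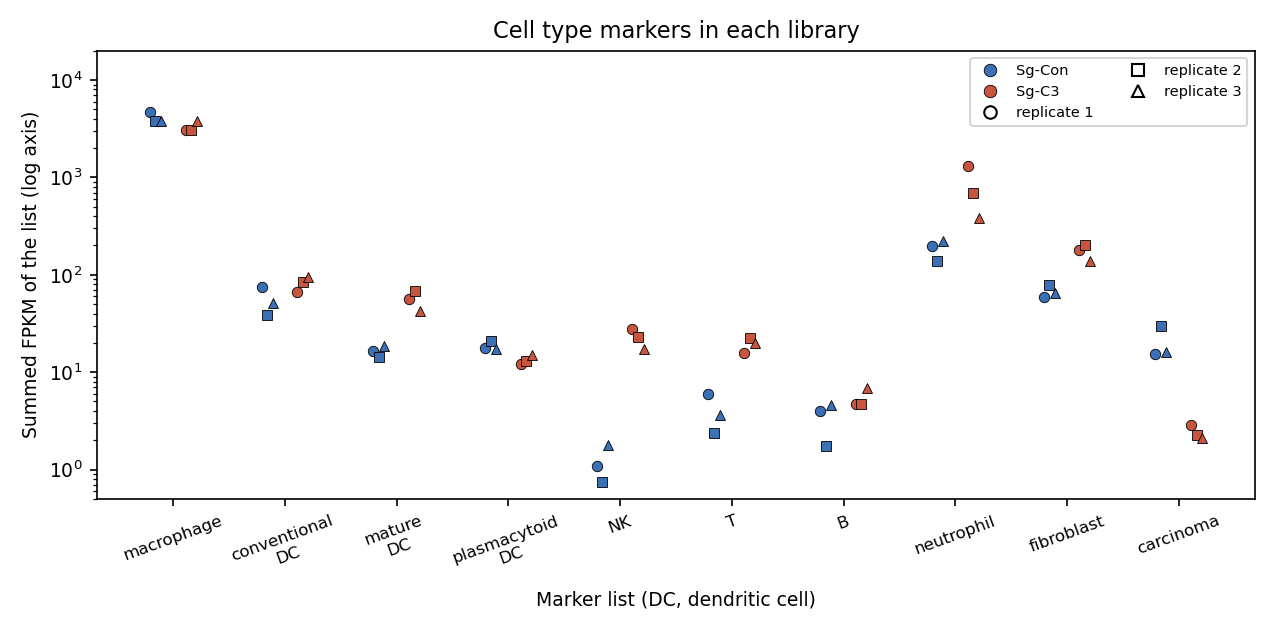
Summed FPKM of each marker list (log axis) in each of 3 Sg-Con (blue) and 3 Sg-C3 (red) libraries. Macrophage markers sum to over 3036 FPKM in every library, and the NK list separates the groups widely, at 0.75 to 1.78 and 17.2 to 27.6 FPKM.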

How the data were processed

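Per the file headers, the deposited table gives FPKM, fragments per kilobase of transcript scaled to library size, for 15487 genes in 6 libraries. The submitters' processing notes name Bowtie 0.12.2 as a tool and mm8 as a genome build. The software behind the FPKM values is not given in the sources. The 7 genes were found by symbol. The 11198 genes that reached 1 FPKM in 3 or more libraries were log2 transformed after 1 was added and tested in R 4.3.3 with limma 3.58.1 (lmFit, and eBayes with its trend option), with Benjamini-Hochberg adjustment over all genes tested and a threshold of 0.05. On 20 simulated sets of these 11198 genes with 200 genes changed, the script found 76.5% of 2-fold and 94.8% of 4-fold changes, and 4.70% of its calls were false. The simulated noise was normal and independent between genes, and 200 changed genes are far fewer than the 4972 called in the data. The false share among the real calls was therefore not measured.

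The members, the 6 pathway lists and the 10 marker lists were chosen with earlier results of these data known. From each pathway list the text names the 4 tested genes with the smallest p, and every called gene where at most 6 were called; others are marked as chosen after their values were seen. For Il12b, Il27 and Ebi3 it names the 5 genes, without predicted names, whose centred log2 profile over the 6 libraries differs least. Depth was estimated from 411 short non-coding genes, after 36 bases were taken from each length. For each library the depth was kept that made the largest share of low values whole reads, within a tolerance of 0.1 read. That share was 85.9% to 92.1%. A depth fixed in advance would give 20% by chance, but the share was maximised, so it is no independent check. The estimated depth was 17.6 to 19.3 megareads per library. Approximate reads of a member use this depth and GENCODE vM21 transcript lengths. Alternatives changed the pseudocount (0.1), the filter (none, or a mean of 5 FPKM or more), the scaling (quantile or median-ratio), the variance model (array weights or a robust prior), the covariates (title style) and the libraries, each left out in turn. Promoter sequences were taken from RefSeq (GRCm38.p6). That build differs from mm8, so no coordinate is tied to the FPKM values. Python 3.11.15, pandas 2.3.3, numpy 2.4.6 and matplotlib 3.10.9 were used.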

Additional observations from a re-analysis of the deposited data

How the results depend on the processing

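The direction of all 7 members stayed higher in Sg-C3 under every alternative in which they were tested, and none was called lower. The alternatives with all libraries called each member they tested. When the filter was a mean of 5 FPKM, 3 members fell under the filter and the other 4 were called higher. With each library left out in turn, 0 to 2 members fell under the filter and 5 to 7 were called higher. With no filter and each library left out (chosen after seeing the data), 6 to 7 were called higher and 0 lower. The exception was Il23a without Sg-C3 replicate 2, with a log2 fold change of 1.37 and a limma adjusted p of 0.0707, where its adjusted p over the 6 such fits began at 0.0202. The number of all genes called ranged from 2780 to 5062 with a library left out, the lowest without Sg-C3 replicate 2 and 3293 without Sg-C3 replicate 1. A pseudocount of 0.1 raised the log2 fold change of the low genes most, to 3.03 for Il12a and 2.32 for Il12rb2. With 0.1 FPKM added to each value, the Sg-Con mean of Ebi3 to Il12a was 44.7 in place of 72.9. With a library left out, the Sg-Con and Sg-C3 means ranged from 5.11 to 10.3 and from 6.54 to 9.60 for Il12b to Il12a, from 0.118 to 0.259 and from 0.542 to 0.584 for Il12b to Il23a, from 1.45 to 1.90 and from 0.456 to 0.603 for Ebi3 to Il27, and from 58.4 to 83.1 and from 15.2 to 21.6 for Ebi3 to Il12a. No paired analysis was possible because the sample titles share no replicate number across the groups. Depth limits Il12a most, at an estimated 3 to 7 reads per Sg-Con library.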
